A study of Mus musculus with 6 samples.

Results

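The genes described here code for 10 proteins of prostaglandin and leukotriene synthesis, and were taken by symbol from the table of 24379 genes: Pla2g4a, Ptgs1, Ptgs2, Ptges, Ptges2, Ptges3, Alox5, Alox5ap, Lta4h and Ltc4s. All 10 had a counted Ensembl identifier and all 10 passed the filter on low counts. Their RNA was measured by sequencing in RAW264.7 cells, a mouse macrophage-like line established from an ascites tumour after infection with Abelson leukaemia virus. By their titles, 3 libraries come from cells given high-fructose corn syrup (HFCS), a syrup that holds fructose and glucose as free sugars. Another 3 are titled WT and serve as the control. The time is 18 h for every library. The titles state an HFCS dose of 140 mM but the source names state 170 mM, which leaves the dose uncertain, and the sources used here do not say what the control cells received. Whether the replicates are separate cultures is not stated, and each p-value therefore rests on the spread between these libraries only, which may be technical.

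Prostaglandins and leukotrienes are short-lived lipid signals made from arachidonate, a fatty acid held in membrane phospholipids. Cytosolic phospholipase A2 frees arachidonate, and the cyclooxygenases turn it into prostaglandin H2, from which terminal synthases make prostaglandin E2 (PGE2) and the other prostanoids. In the other branch, 5-lipoxygenase with its activating protein makes leukotriene A4 (LTA4), which one hydrolase turns into leukotriene B4, an attractant of neutrophils, and which leukotriene C4 synthase joins to glutathione. Macrophages are a known source of both kinds of lipid, and the inducible cyclooxygenase, Ptgs2, is a textbook marker of their inflammatory activation.

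The libraries held 13108485 to 15340255 counts. Of 9 macrophage markers 8 passed the filter, with summed levels of 1970 to 2043 CPM (gene counts scaled to library size) in the HFCS-labelled and 1577 to 1585 CPM in the control-labelled libraries. These 8 markers moved apart, with 6 called higher, among them Cd14 (1.89), Fcgr3 (1.68) and Adgre1 (1.04), and 2 lower, Csf1r (-0.67) and Cd68 (-0.42), in log2 fold change, and their part in the results was not tested. The ninth, Mertk, was counted at 0 in 4 libraries and reached 0.282 CPM at most. Taken list by list, markers of T cells, B cells, mast cells and neutrophils summed to 0.890 CPM at most in any library. Fibroblast markers summed to 1.63 CPM at most. Several markers of these lists were not in the table, and of 5 for mast cells only 1 was. Control replicate 1 stood somewhat apart from the other control libraries. Against them it gave 14.0 and 16.7 in chi-square over degrees of freedom, where those 2 gave 3.77. HFCS replicate 3 also stood apart from its group, by less, at 6.64 and 6.58, where the other 2 gave 2.60. The platelet markers, nearly all of it Itga2b, summed to 6.08 to 6.92 CPM in the HFCS-labelled libraries against 2.93 to 3.32 CPM, and their part in the results was not tested. The groups are called HFCS-labelled and control-labelled, because Akr1b3, an aldose reductase gene that cells are known to raise in concentrated media, lay far higher in the control-labelled libraries. Each direction given rests on those labels.

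Across these 10 genes the messages of the cyclooxygenases moved in opposite directions, Ptgs2 up and Ptgs1 down, and the arachidonate-releasing phospholipase gene Pla2g4a rose. On the leukotriene side Ltc4s and Lta4h fell, and Alox5 and Alox5ap did not pass the test. In edgeR's quasi-likelihood test, with the Benjamini-Hochberg adjustment over all 14360 tested genes and a threshold of 0.05, 2 of the 10 were called higher in the HFCS-labelled libraries and 4 lower. Of all tested genes 22.4% were called higher and 22.5% lower, 44.9% in either direction, so that 6 of 10 is a share near to that of the genome at large. The median log2 fold change was -0.05 for the 10 genes and 0.00 for all tested genes. The libraries of the groups did not overlap for 7 of the 10, of which 3 lay higher and 4 lower with HFCS, against 54.5% of all tested genes, 27.4% higher and 27.2% lower. Without control replicate 1 the counts were 3 higher and 4 lower.

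The stretches of DNA around the start sites are shown for the 2 genes that rose and the 2 that fell furthest, because these genes carry the changes described next. They are RefSeq windows on GRCm38.p6, from 250 bases before to 50 after the annotated start, written 5′ to 3′ on the strand of the gene, with matches to the motifs searched in capitals. The windows are chr1:150099781-150100080 on the plus strand for Ptgs2, chr1:149961241-149961540 on the minus strand for Pla2g4a, chr2:36230176-36230475 on the plus strand for Ptgs1 and chr11:50238483-50238782 on the minus strand for Ltc4s.
Ptgs2: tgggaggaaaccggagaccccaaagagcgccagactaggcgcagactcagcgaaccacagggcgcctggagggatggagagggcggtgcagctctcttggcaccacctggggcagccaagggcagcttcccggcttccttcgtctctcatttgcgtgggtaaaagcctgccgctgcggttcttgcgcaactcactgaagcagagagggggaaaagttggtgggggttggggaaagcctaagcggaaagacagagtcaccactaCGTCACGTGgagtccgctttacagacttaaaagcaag
Pla2g4a: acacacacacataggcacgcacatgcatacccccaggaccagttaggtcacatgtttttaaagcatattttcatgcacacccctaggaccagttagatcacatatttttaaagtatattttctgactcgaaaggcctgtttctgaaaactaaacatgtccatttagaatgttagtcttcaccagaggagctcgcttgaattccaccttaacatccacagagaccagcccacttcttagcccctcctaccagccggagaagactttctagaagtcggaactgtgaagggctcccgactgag
Ptgs1: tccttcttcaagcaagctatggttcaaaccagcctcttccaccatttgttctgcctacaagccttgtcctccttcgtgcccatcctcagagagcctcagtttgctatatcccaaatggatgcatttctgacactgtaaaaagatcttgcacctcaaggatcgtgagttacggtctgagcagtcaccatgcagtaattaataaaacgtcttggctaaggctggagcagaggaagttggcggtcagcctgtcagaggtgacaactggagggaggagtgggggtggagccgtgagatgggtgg
Ltc4s: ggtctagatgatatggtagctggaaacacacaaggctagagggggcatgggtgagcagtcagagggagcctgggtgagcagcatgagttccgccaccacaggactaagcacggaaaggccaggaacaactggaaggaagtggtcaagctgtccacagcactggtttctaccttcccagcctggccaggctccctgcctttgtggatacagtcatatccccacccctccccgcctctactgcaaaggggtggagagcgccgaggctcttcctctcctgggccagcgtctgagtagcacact
Of these 4 windows, only that of Ptgs2 held a match. There the core of the cyclic AMP response element, CGTCA, and an E-box, CACGTG, overlap and start 14 and 17 bases after the annotated start. The motifs searched on both strands were these 2, the TATA box TATAAA, the AP-1 site TGANTCA, the CCAAT box CCAAT, the EGR1 core GTGGGCG and the NF-kB site. Among 32851 windows of this length, 20.8% held CGTCA, 7.15% the E-box, 13.6% the TATA box, 7.81% the AP-1 site, 37.4% the CCAAT box, 7.97% the EGR1 core and 8.46% the NF-kB site. Windows were found for 9 of the 10 genes. Of those not printed, that of Ptges held the EGR1 core 2 times, starting 55 and 44 bases before the start, and that of Ptges2 held an E-box. The window of Ptges3 held CGTCA and the NF-kB site, that of Lta4h held 2 CCAAT boxes, and a second window of Pla2g4a held a TATA box and a CCAAT box. A match is a description of the letters and no evidence of binding.

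**Figure D1:**
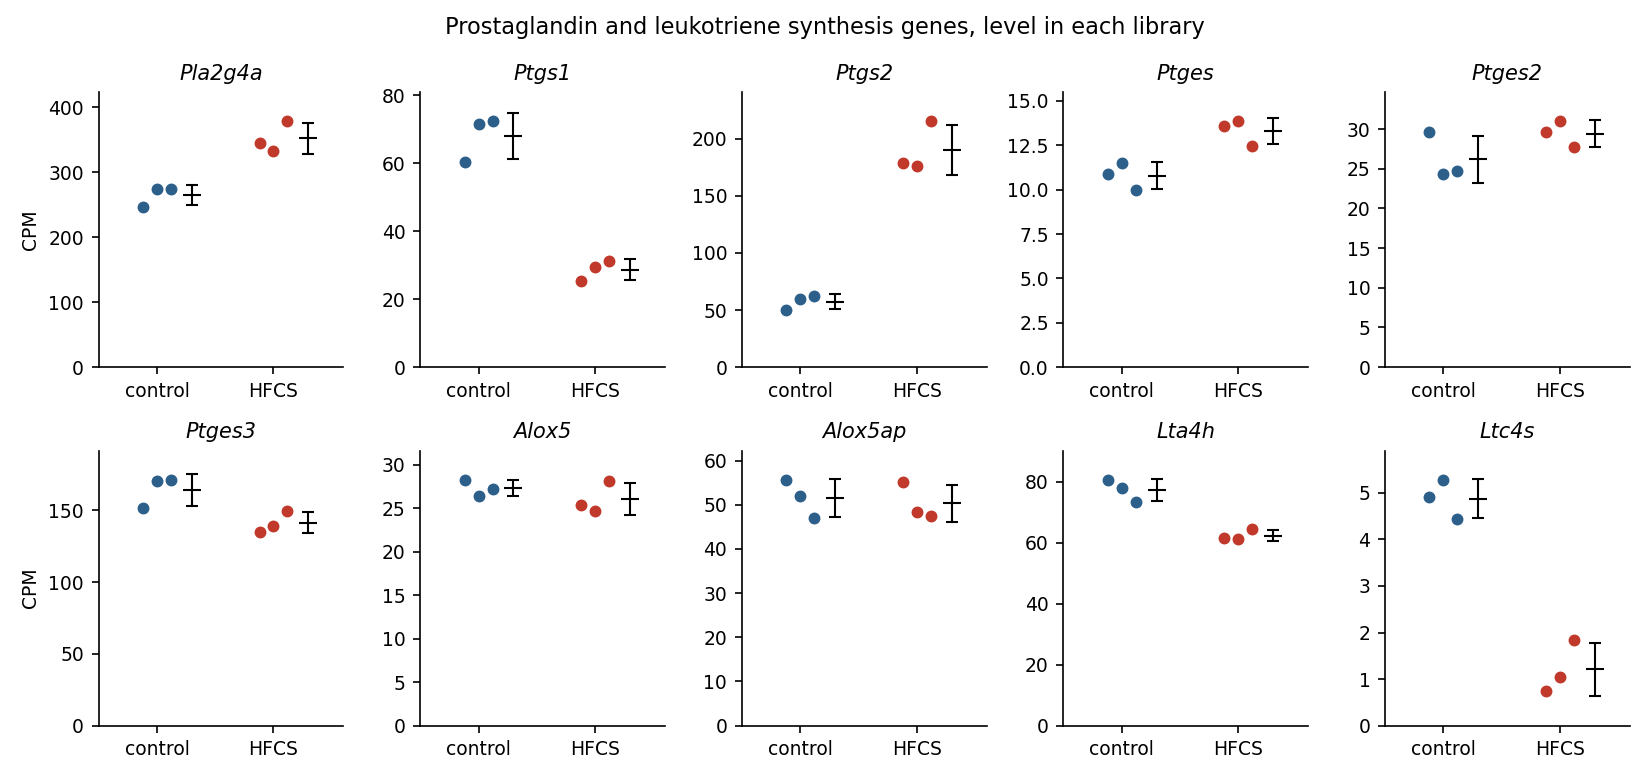
Level of each of the 10 genes in CPM (gene counts scaled to library size) in the 3 control-labelled (blue) and 3 HFCS-labelled (red) libraries, 1 point per library, with the mean and SD of each group in black; each panel has its own axis from 0. Ptgs2, Pla2g4a and Ptges are higher in every HFCS-labelled library, Ptges by a small margin. Ptgs1, Lta4h, Ltc4s and Ptges3 are lower in every one, and the points of Ptges2, Alox5 and Alox5ap overlap between the groups.

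Pla2g4a (ENSMUSG00000056220, mm10 chromosome 1, 149829618 to 149961290, minus strand) codes for cytosolic phospholipase A2 alpha, the calcium-dependent enzyme that cuts arachidonate from membranes. It was counted at 345, 333 and 378 CPM in HFCS-labelled replicates 1 to 3 and at 246, 274 and 274 CPM in control-labelled replicates 1 to 3. Every HFCS-labelled library lay above every control-labelled one, and the log2 fold change was 0.41 ± 0.07 (SE; edgeR adjusted p = 0.00114; mean ± SD of 352 ± 23.4 against 264.6 ± 15.8 CPM, n = 3 each). An rRNA gene, n-R5s219, lies within it on the other strand, shares no exonic base with it and had 5 and 1 counts in the groups.

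Ptgs2 (ENSMUSG00000032487, chromosome 1, 150100031 to 150108227, plus strand), the inducible cyclooxygenase whose window is printed above, was counted at 179, 176 and 215 CPM in the HFCS-labelled and 49.7, 59.6 and 62.3 CPM in the control-labelled libraries. The groups were far apart, and the lowest HFCS-labelled library lay well above the highest control-labelled one. The change was 3.33-fold, or 1.73 ± 0.11 on the log2 scale (edgeR adjusted p = 1.01e-06). Ptgs1 (ENSMUSG00000047250, chromosome 2, 36230426 to 36252272, plus strand) codes for the cyclooxygenase that many tissues express constantly. It went the other way, with 25.2, 29.3 and 31.3 CPM in the HFCS-labelled and 60.2, 71.6 and 72.2 CPM in the control-labelled libraries. Its groups did not overlap either, and its log2 fold change was -1.25 ± 0.11 (edgeR adjusted p = 9.43e-06). An unnamed gene on the opposite strand, Gm43621, shares 148 of the 3884 exonic bases of Ptgs1 and had 6 and 19 counts summed over the groups, where Ptgs1 had 1284 and 2872.

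The balance between the cyclooxygenases was turned over. A ratio of the messages within a library needs no scaling between libraries. Per kilobase of exon, there were 6.01, 5.11 and 5.83 Ptgs2 messages for each of Ptgs1 in the HFCS-labelled libraries and 0.700, 0.706 and 0.731 for each in the control-labelled ones. Ptgs2 thus made up 84.9 ± 1.13% of the summed level of the pair in the HFCS-labelled libraries and 41.6 ± 0.569% in the control-labelled ones (mean ± SD, n = 3 each). The ratio differed 7.91-fold, a log2 difference of 2.98, with no overlap and a two-sided exact permutation p of 0.1, which is the smallest that 3 libraries against 3 allow (0.167 after Benjamini-Hochberg adjustment over 5 ratios tested). The order of the genes was also turned in plain counts, with 6.02 to 7.09 counts of Ptgs2 for each of Ptgs1 in the HFCS-labelled libraries and 0.825 to 0.862 in the control-labelled ones. The summed level of the pair was 48.9 ± 5.32 against 30.0 ± 3.17 CPM per kilobase (exact permutation p = 0.1). In bulk RNA, more message per cell and more cells that hold it cannot be told apart.

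**Figure D2:**
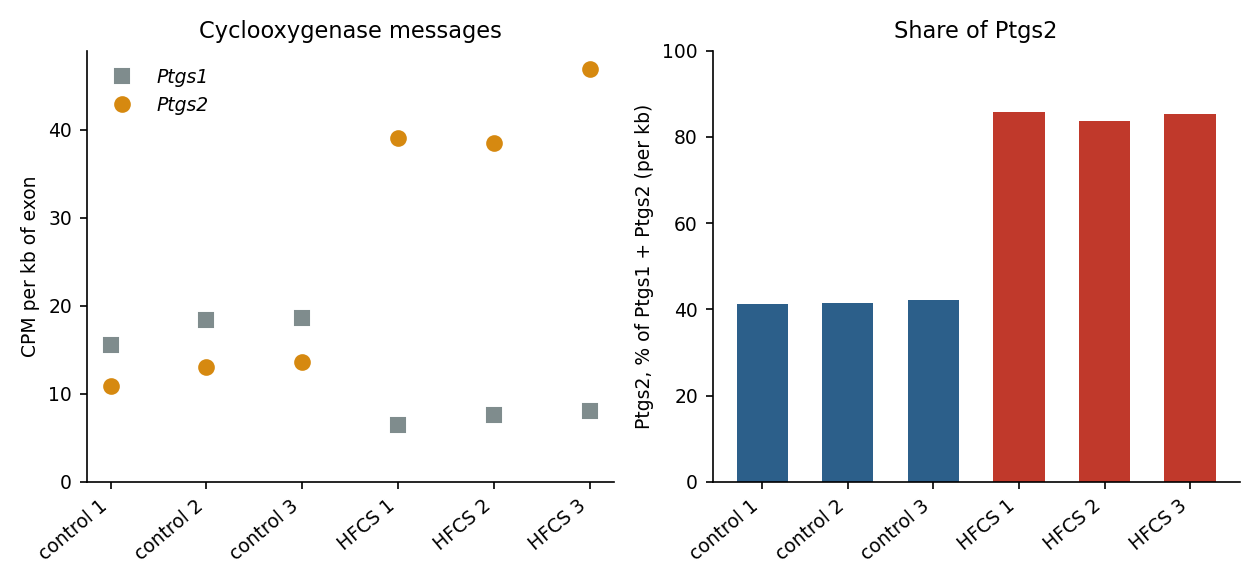
Left, level of Ptgs1 (grey squares) and Ptgs2 (orange circles) in each library, in CPM per kilobase of exon; right, Ptgs2 as a percentage of the summed level of both in each library (blue control-labelled, red HFCS-labelled). Ptgs1 lies above Ptgs2 in each of the 3 control-labelled libraries and below it in each of the 3 HFCS-labelled ones, and the share of Ptgs2 is 41.6% on average in the former and 84.9% in the latter.

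Pla2g4a and Ptgs2 are neighbours, 138.74 kilobases apart on chromosome 1, and the only gene of the table that lies between them is Ptgs2os, a gene on the opposite strand whose own start lies 67 bases from that of Ptgs2, so that both are read away from each other. Ptgs2os was low, with 20, 22 and 31 counts in the HFCS-labelled libraries and 12, 9 and 10 in the control-labelled ones. It passed the test too, with a log2 fold change of 1.14 ± 0.34 (edgeR adjusted p = 0.0174). The annotated spans of Ptgs2 and Ptgs2os do not overlap, so reads within them differ by position. The sources used here do not say whether the counting used strand. Reads that run past the annotated start of either gene may therefore not be told apart. Ptgs2os was chosen after its values were seen.

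Among tested genes with a proper name, those whose pattern over the 6 libraries lay nearest to that of Ptgs2 were Cybb, Parp14 and Lilrb4a. Their log2 levels, each centred on its mean, differed from those of Ptgs2 by a root mean square of 0.052, 0.060 and 0.083. Cybb codes for the catalytic subunit of the phagocyte NADPH oxidase, Parp14 for an ADP-ribosyltransferase and Lilrb4a for an inhibitory receptor of myeloid cells. Their log2 fold changes were 1.71, 1.77 and 1.58, beside 1.73 for Ptgs2. Values this close follow from the way the genes were picked and are no separate result.

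The terminal PGE2 synthases showed little of this. Ptges (ENSMUSG00000050737, chromosome 2, 30889471 to 30929863, minus strand), the inducible membrane enzyme known to act with Ptgs2, had 13.6, 13.8 and 12.5 CPM in the HFCS-labelled and 10.9, 11.5 and 10.01 CPM in the control-labelled libraries. The HFCS-labelled libraries were all above the control-labelled ones by a small margin, and the log2 fold change of 0.30 ± 0.12 did not pass the test (edgeR adjusted p = 0.0723). It did pass when libraries were scaled by size alone (0.38, edgeR adjusted p = 0.0273). The pseudogene Gm13400, which lies within Ptges on the same strand, had 7 and 6 counts summed over the groups.

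Ptges2 (ENSMUSG00000026820, chromosome 2, 32395896 to 32405772, plus strand), a second membrane-associated synthase, had 29.7, 31.0 and 27.7 CPM in the HFCS-labelled and 29.6, 24.3 and 24.7 CPM in the control-labelled libraries. Control replicate 1 lay among the HFCS-labelled values, and the log2 fold change was 0.17 ± 0.11 (edgeR adjusted p = 0.237). Without that library it was 0.27 and passed (edgeR adjusted p = 0.0353). Ptges2 lies 7.643 kilobases from Lcn2, the lipocalin 2 gene, with no gene of the table between them.

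Ptges3 (ENSMUSG00000071072, chromosome 10, 128058954 to 128077272, plus strand) codes for the cytosolic synthase that is better known as p23, a partner of the chaperone HSP90. It was counted at 135, 139 and 149 CPM in the HFCS-labelled and 152, 170 and 171 CPM in the control-labelled libraries. The groups did not overlap but came close, and the log2 fold change of -0.22 ± 0.07 passed narrowly (edgeR adjusted p = 0.0318). The call was lost under 6 of 11 other settings, among them leaving out HFCS replicate 1 (-0.17, edgeR adjusted p = 0.168), HFCS replicate 2 (-0.20, 0.120), control replicate 2 (-0.19, 0.0982) or control replicate 3 (-0.19, 0.120). A processed copy, Ptges3-ps, matches a Ptges3 transcript over 480 bases at 100% identity and had 35.0 ± 3.38 CPM in the HFCS-labelled and 37.5 ± 3.93 CPM in the control-labelled libraries, so the counting could split reads between them and the change of Ptges3 is uncertain. The HSP90 genes Hsp90ab1 (-0.78 ± 0.06, edgeR adjusted p = 4.74e-06) and Hsp90aa1 (-0.74 ± 0.09, edgeR adjusted p = 1.24e-04) also fell.

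Within libraries, the HFCS-labelled ratio of Ptges to Ptges3 per kilobase was 1.43 times the control-labelled one, without overlap (exact permutation p = 0.1, adjusted 0.167), and that of Ptges to Ptges2 differed by 1.09-fold with overlap (exact permutation p = 0.4, adjusted 0.5). Ptges3 made up 87.4 ± 1.10% of the summed level of the 3 synthase messages in the HFCS-labelled libraries and 90.3 ± 1.30% in the control-labelled ones, while Ptges made up 4.65 ± 0.416% and 3.35 ± 0.306%.

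The genes that begin the leukotriene branch did not pass the test. Alox5 (ENSMUSG00000025701, chromosome 6, 116410077 to 116461178, minus strand), the 5-lipoxygenase, had 25.4, 24.7 and 28.1 CPM in the HFCS-labelled and 28.3, 26.4 and 27.3 CPM in the control-labelled libraries, which overlapped. Its log2 fold change was -0.07 ± 0.10 (edgeR adjusted p = 0.609). Alox5ap (ENSMUSG00000060063, chromosome 5, 149264767 to 149288153, plus strand) codes for FLAP, the membrane protein that hands arachidonate to 5-lipoxygenase. It had 55.2, 48.3 and 47.4 CPM against 55.6, 51.9 and 47.1 CPM, nearly the same spread of values in both groups, with a log2 fold change of -0.04 ± 0.09 (edgeR adjusted p = 0.778). The signs of these differences turned with the scaling, and over the other settings Alox5 lay between -0.11 and 0.01 and Alox5ap between -0.10 and 0.04. The ratio of Alox5ap to Alox5 per kilobase was 5.58 with the HFCS label and 5.45 with the control label (geometric means, exact permutation p = 1). The antisense gene Gm19719 shares 189 of the 1420 exonic bases of Alox5ap and fell (-1.37 ± 0.41, edgeR adjusted p = 0.0177), from 101 counts summed over the control-labelled libraries to 41 with HFCS, where Alox5ap had 2180 and 2234.

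The messages of Lta4h and Ltc4s, whose products use LTA4, were lower in the HFCS-labelled libraries. Lta4h (ENSMUSG00000015889, chromosome 10, 93453411 to 93484875, plus strand), the hydrolase that makes leukotriene B4, had 61.4, 61.1 and 64.5 CPM in the HFCS-labelled and 80.5, 78.0 and 73.4 CPM in the control-labelled libraries. The groups did not overlap, and the log2 fold change was -0.31 ± 0.07 (edgeR adjusted p = 0.00507).

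Ltc4s (ENSMUSG00000020377, chromosome 11, 50236461 to 50238616, minus strand) codes for leukotriene C4 synthase, the first enzyme of the cysteinyl leukotrienes, and its window is printed above. It was the lowest of the 10 genes in counts and fell furthest, with 10, 16 and 29 counts in HFCS-labelled replicates 1 to 3 and 71, 72 and 63 in control-labelled replicates 1 to 3. These are 0.742, 1.04 and 1.83 CPM against 4.92, 5.28 and 4.44 CPM. HFCS replicate 3 was the highest of its group and still well below every control-labelled library. The control-labelled level was 3.95 times the HFCS-labelled one by summed counts (exact 95% counting interval 2.92 to 5.42, which covers counting error only), and the log2 fold change was -1.99 ± 0.30 (edgeR adjusted p = 3.97e-04). The antisense gene Gm26542 shares 268 of the 1014 exonic bases of Ltc4s and fell as well, with 67 against 257 counts and a log2 fold change of -2.01 ± 0.21 (edgeR adjusted p = 3.86e-05). The reads of that pair may not be told apart. The ratio of Ltc4s to Lta4h per kilobase was 0.109 against 0.379, a 3.49-fold difference without overlap (exact permutation p = 0.1, adjusted 0.167).

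**Figure D3:**
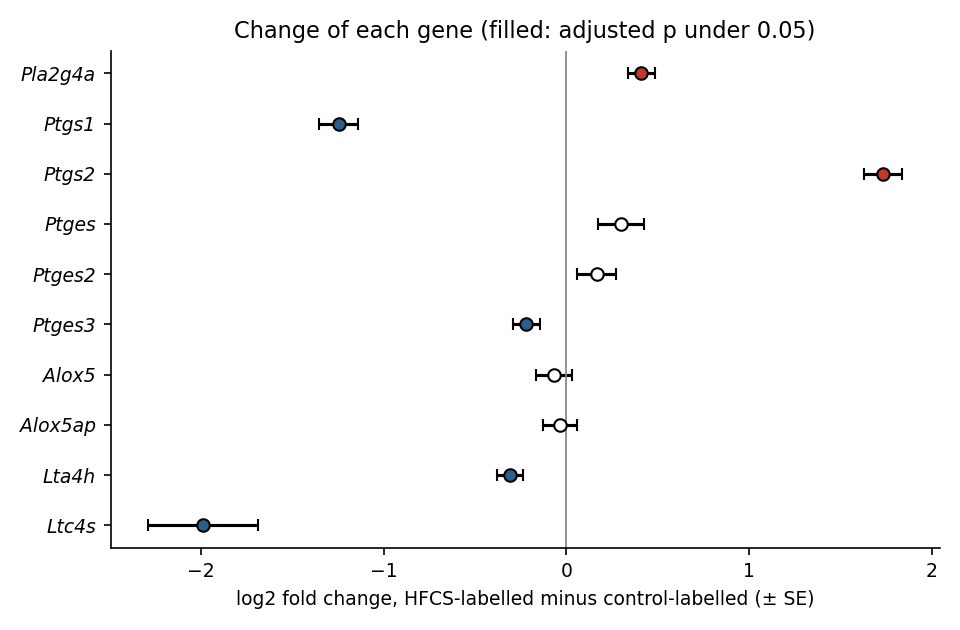
Log2 fold change of each of the 10 genes, HFCS-labelled minus control-labelled, with its SE, from edgeR's quasi-likelihood fit; filled points passed an adjusted p of 0.05 (red higher, blue lower) and open points did not. Ptgs2 at 1.73 and Ltc4s at -1.99 are the ends of the range, and Alox5 and Alox5ap lie at 0 within their SE.

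Levels of different genes are compared per kilobase of exon, because a longer message gives more reads. On this scale Ptges3 was the highest of the 10 in both groups, at 63.7 ± 3.30 CPM per kilobase in the HFCS-labelled libraries and 74.1 ± 4.96 in the control-labelled ones, with the reservation about its copy. In the HFCS-labelled libraries Pla2g4a (55.1 ± 3.66) followed, then Ptgs2 (41.5 ± 4.72) and Alox5ap (35.4 ± 2.99), whose ranges overlapped. Lta4h (10.2 ± 0.313) came next, then Ptgs1 (7.36 ± 0.797), Alox5 (6.35 ± 0.444) and Ptges2 (5.82 ± 0.326), each overlapping the next, and Ptges (3.38 ± 0.188) and Ltc4s (1.19 ± 0.555) were last. In the control-labelled libraries Pla2g4a (41.4 ± 2.48) and Alox5ap (36.3 ± 3.01) overlapped, and Ptgs1 (17.5 ± 1.74) stood above Lta4h (12.7 ± 0.596) and Ptgs2 (12.5 ± 1.44), which overlapped. Alox5 (6.65 ± 0.228) came next, then Ptges2 (5.18 ± 0.588) and Ltc4s (4.81 ± 0.414), which overlapped, and Ptges (2.75 ± 0.191) was last. Ptgs2 thus moved from the sixth place in the control-labelled to the third in the HFCS-labelled libraries, and from above 68.2% of all tested genes to above 92.3% of them. Ptgs1 moved from above 77.6% to above 52.2%.

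Around these 10 genes, 9 lists of other eicosanoid genes held 65 tested identifiers, of which 15 were called higher and 20 lower, 53.8% in all, with a median log2 fold change of -0.10. The background for these counts is the same 22.4% and 22.5%. Of 105 symbols, 90 identifiers were in the table and 25 of these were below the filter. The other symbols, among them the prostaglandin breakdown gene Hpgd and the receptor genes Ptger3, Ptgdr and Ptgfr, had no row in the table of counts. They could therefore not be tested.

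**Figure D4:**
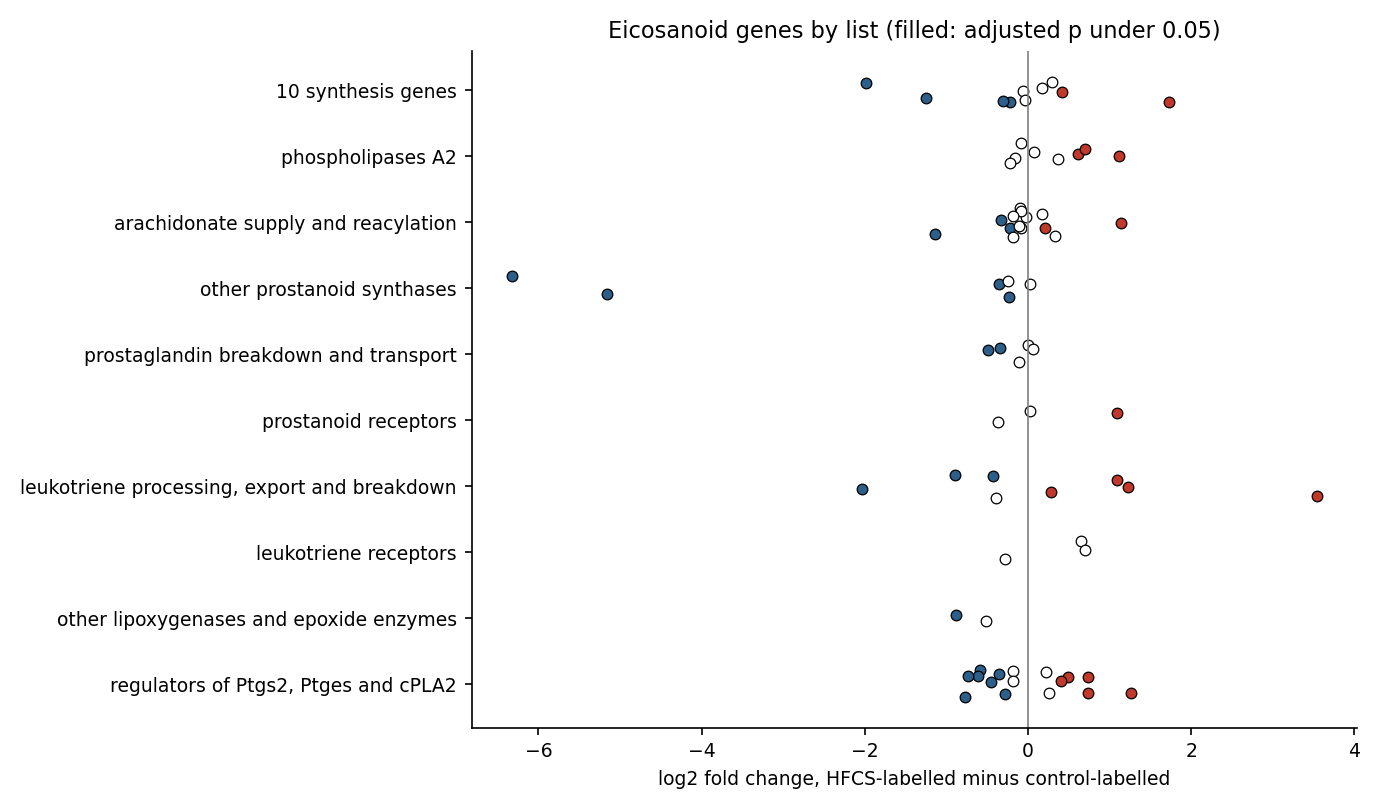
Log2 fold change (HFCS-labelled minus control-labelled) of each tested gene, 1 point per gene, for the 10 synthesis genes and the 9 lists of other eicosanoid genes; filled points passed an adjusted p of 0.05 (red higher, blue lower) and open points did not, and the vertical scatter within a list has no meaning. Ptgds and Akr1b3 lie at -6.33 and -5.16, far from the rest, and the 3 called phospholipases lie to the right of 0.

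Phospholipases A2 release fatty acids at the head of the pathway. Of 8 tested besides Pla2g4a, 3 were higher, none was lower and 5 did not pass (median 0.22). The secreted enzyme genes Pla2g5 (0.70 ± 0.12, edgeR adjusted p = 7.52e-04) and Pla2g2e (0.61 ± 0.12, 0.00176) and the cytosolic Pla2g4c (1.11 ± 0.35, 0.0246) rose. Pla2g5 had 80.2, 77.5 and 72.0 CPM in the HFCS-labelled and 56.5, 39.6 and 45.4 CPM in the control-labelled libraries, with control replicate 1 the highest of its group. Pla2g4c was low, at 3.15 ± 0.806 against 1.46 ± 0.669 CPM, and its call was lost without HFCS replicate 1 (edgeR adjusted p = 0.0759), HFCS replicate 3 (0.0784), control replicate 1 (0.0502) or control replicate 3 (0.0736).

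Genes that supply arachidonate or return it to phospholipids mostly did not pass: of 14 tested, 2 were higher and 3 lower (median -0.09). Lpcat2, an acyltransferase that remodels phospholipids in inflammatory cells and also makes platelet-activating factor, rose from 20.9 ± 4.23 to 46.1 ± 6.37 CPM (1.15 ± 0.15, edgeR adjusted p = 1.66e-04). Abhd6, a hydrolase of the arachidonate-bearing lipid 2-arachidonoylglycerol, fell from 24.6 ± 5.18 to 11.2 ± 0.442 CPM (-1.13 ± 0.15, edgeR adjusted p = 1.85e-04). Lpcat1 (-0.33), Fads2 (-0.22), a desaturase of arachidonate synthesis, and Acsl4 (0.21), which activates arachidonate, changed by less. Of these, Fads2 lost its call under 8 and Acsl4 under 5 of 11 other settings, DESeq2 among them for both (adjusted p = 0.0534 and 0.0574).

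Of 6 tested synthases of other prostanoids, 4 were lower and none higher (median -0.30). Ptgds, the lipocalin-type prostaglandin D synthase, was counted 1, 4 and 0 times in the HFCS-labelled libraries and 175, 130 and 105 times in the control-labelled ones. The message was near the floor of 3 counts in the HFCS-labelled libraries, and the ratio of the summed counts, scaled by library size, was 86.5 with an exact 95% counting interval of 36.8 to 268, for counting error only (log2 fold change -6.33 ± 0.46, edgeR adjusted p = 3.62e-06). The size of this change rested on single libraries, with -7.81 without HFCS replicate 2 and -5.72 without HFCS replicate 3, and it passed in both cases. Hpgds, the haematopoietic prostaglandin D synthase, was plentiful in both groups, with 80.6, 92.3 and 93.5 CPM in the HFCS-labelled and 96.9, 111 and 105 CPM in the control-labelled libraries (-0.23 ± 0.08, edgeR adjusted p = 0.0413). Its call was lost under 7 of 11 other settings. Akr1b3, the aldose reductase, which in mice is also a prostaglandin F synthase, fell from 7422 ± 381 to 208 ± 11.99 CPM (-5.16 ± 0.08, edgeR adjusted p = 5.19e-11). The carbonyl reductase gene Cbr1 (-0.35, edgeR adjusted p = 0.0459) was the other that fell, and the prostacyclin synthase gene Ptgis was at 1.65 ± 0.867 against 1.63 ± 0.631 CPM.

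**Figure D5:**
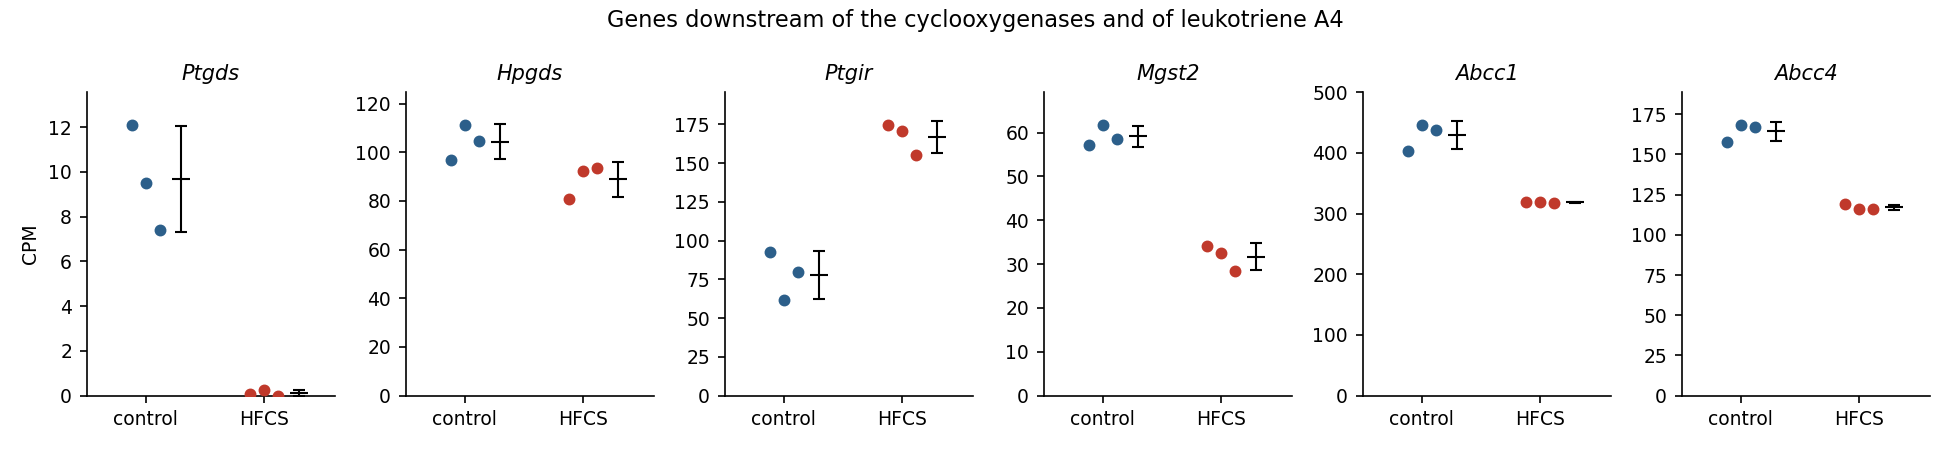
Level in CPM of 6 genes that act after the cyclooxygenases or after LTA4, in the 3 control-labelled (blue) and 3 HFCS-labelled (red) libraries, 1 point per library, with the mean and SD of each group in black; each panel has its own axis from 0. Ptgds is near 0 in every HFCS-labelled library, Ptgir is higher there, and Hpgds, Mgst2, Abcc1 and Abcc4 are lower there without overlap.

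Of 5 tested genes for breakdown and transport of prostaglandins, 2 were lower and none higher (median -0.11). The exporter gene Abcc4, which carries PGE2 out of cells, fell from 164 ± 5.94 to 117 ± 1.68 CPM (-0.49 ± 0.06, edgeR adjusted p = 1.36e-04). Ptgr1, a reductase that inactivates prostaglandins and leukotriene B4, fell by 0.35 on the log2 scale (edgeR adjusted p = 0.0193), but did not pass without HFCS replicate 2 (0.0921), HFCS replicate 3 (0.0887) or control replicate 3 (0.0756), nor with scaling by library size alone (0.0595).

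Among prostanoid receptors, 3 were tested and 1 passed. Ptgir, the prostacyclin receptor, had 175, 171 and 155 CPM in the HFCS-labelled and 92.5, 61.5 and 80.05 CPM in the control-labelled libraries (1.10 ± 0.12, edgeR adjusted p = 6.14e-05), with no overlap. The PGE2 receptor genes Ptger1 and Ptger4 stayed low, at 3.92 ± 0.554 against 3.84 ± 0.935 CPM and 2.98 ± 0.410 against 3.86 ± 0.702 CPM. Ptger2 had 6 counts in the HFCS-labelled group and 0 in the other. None of 3 tested leukotriene receptor genes passed, with adjusted p-values of 0.343, 0.346 and 0.188 for Ltb4r1, Cysltr1 and Gpr17.

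Genes that process leukotrienes after LTA4 moved both ways, with 4 of 8 tested higher and 3 lower (median -0.06). Mgst2, a microsomal glutathione transferase that can also make leukotriene C4, fell alongside Ltc4s. It had 34.2, 32.6 and 28.4 CPM in the HFCS-labelled and 57.2, 61.8 and 58.6 CPM in the control-labelled libraries (-0.90 ± 0.09, edgeR adjusted p = 3.03e-05). Its relative Mgst3 did not pass (-0.39 ± 0.18, edgeR adjusted p = 0.106). Abcc1, the exporter of leukotriene C4, fell from 429 ± 23.0 to 318 ± 0.185 CPM (-0.43 ± 0.06, edgeR adjusted p = 3.45e-04). Ggt1, a gamma-glutamyl transferase, fell as well but its counts summed to only 12 in the HFCS-labelled group, against 48 (-2.04 ± 0.68, edgeR adjusted p = 0.0320). It did not pass without HFCS replicate 1 (0.0636), HFCS replicate 2 (0.0785, with a log2 fold change of -1.44), control replicate 1 (0.0836) or control replicate 3 (0.0524).

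Of 3 genes of the dipeptidase family, some members of which turn leukotriene D4 into E4, Dpep2 and Dpep3 rose. Dpep1, with 2 and 1 counts in the groups, was below the filter. The counts do not show which of the products act on leukotriene D4. Dpep2 went from 2.03 ± 0.990 to 4.75 ± 0.945 CPM (1.23 ± 0.32, edgeR adjusted p = 0.00909), although the name covers a second identifier, with 33 and 10 counts summed over the groups, that was below the filter. Counts of Dpep3 summed to 41 in the HFCS-labelled group and 3 in the other group, which is a 12.9-fold difference with an exact 95% counting interval of 4.13 to 65.4, for counting error only (log2 fold change 3.54, edgeR adjusted p = 0.00158). Without control replicate 3 its log2 fold change was 4.39, and it still passed (edgeR adjusted p = 0.00398). Cyp4f18, a cytochrome P450 that degrades leukotriene B4 in mouse myeloid cells, was at 1.48 ± 0.0243 against 0.689 ± 0.177 CPM (edgeR adjusted p = 0.0253), and its call was lost when any library but control replicate 2 was left out and with DESeq2 (adjusted p = 0.0798). The gene for coactosin-like protein, Cotl1, a partner of 5-lipoxygenase, was the fourth that rose (0.28 ± 0.10, edgeR adjusted p = 0.0385), with groups that overlapped. Of the other lipoxygenases and epoxide enzymes, 2 were tested, and the epoxide hydrolase gene Ephx1 fell (-0.88 ± 0.14, edgeR adjusted p = 6.55e-04). Alox15 and Alox12 were below the filter in both groups.

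Of 16 tested genes for factors known to regulate Ptgs2, Ptges or cytosolic phospholipase A2, 5 were higher and 7 lower (median -0.19). Cebpd (1.26 ± 0.16, edgeR adjusted p = 1.36e-04) and Creb1 (0.50 ± 0.08, 5.53e-04), transcription factors with known sites in the Ptgs2 promoter, rose, as did Cebpb (0.74 ± 0.14, 0.00187). Zfp36, which codes for tristetraprolin, a protein that destabilises Ptgs2 mRNA, rose too (0.74 ± 0.13, 9.18e-04). So did Mapk14, the p38 kinase gene (0.41 ± 0.07, 0.00111). Mapkapk2, another kinase gene of the list, lay lower without overlap but did not pass (-0.19 ± 0.07, edgeR adjusted p = 0.0599). S100a10 (-0.61 ± 0.08, 1.47e-04) and Anxa1 (-0.59 ± 0.09, 2.73e-04), whose products are known to restrain cytosolic phospholipase A2, fell. Among the other genes of the list for RNA-binding proteins, Tia1 (-0.35), Tial1 (-0.28) and Zfp36l1 (-0.46) fell, while Celf2 (-0.19, edgeR adjusted p = 0.160), Khsrp (0.26, 0.0676) and Elavl1 (0.22, 0.0611) did not pass. Egr1, a known activator of Ptges, had 4 counts in all HFCS-labelled libraries together and 0 in the others. Cbr1, Cotl1, Cebpb, Mapk14, Mapkapk2, Anxa1, Tia1, Tial1, Zfp36l1 and Celf2 were named after their values were seen. So were Khsrp, Elavl1, Egr1, Mgst3, Dpep1, Ptgis and the receptor genes other than Ptgir. The calls of these later-named genes, those of Cbr1 and Cotl1 near the threshold among them, were not followed under the other settings.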

How the data were processed

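Whole-number read counts for each gene, not normalised, were deposited, 1 column per library. The tools listed by the authors, per the submitters' processing notes, include the aligner HISAT2 2.0.5 and the counter featureCounts 1.5.0-p3, with genome build mm10. The sources used here give neither the strand setting nor the annotation. Symbols, exonic lengths and overlaps came from GENCODE M21, which held 24369 of 24379 identifiers, 97.1% with the same coordinates. Promoter windows came from RefSeq (GRCm38.p6). Copies of the 10 genes were searched with BLAST among all transcripts (at least 200 bases at 90% identity).

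Genes were kept by edgeR's filterByExpr (minimum count 10), which left 14360. Counts were scaled by TMM and the groups compared with edgeR 4.0.16 (R 4.3.3), glmQLFit and glmQLFTest, no covariate. Each SE was derived from the fold change and its F statistic. Ratios within a library were compared by exact permutation. CPM per kilobase used the union of a gene's exons, which overstates the length of short isoforms. A count of 3 corresponds to 0.190 to 0.222 CPM. The fit was tested on simulated data.

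The 10 genes, the lists and the tests were chosen with earlier results of these data known. Besides the 10, the rule named up to 3 called genes per list and direction with the smallest adjusted p. It also named the 3 tested genes nearest to Ptgs2, leaving out genes with placeholder names. Alternatives were median-of-ratios scaling, library size alone, DESeq2 1.42.0, no filter, the replicate number as a block and each library left out in turn.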

Additional observations from a re-analysis of the deposited data

How the results depend on the processing

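Ptgs2, Ptgs1, Pla2g4a, Lta4h and Ltc4s kept their direction and their call under all 11 other settings, with log2 fold changes of 1.65 to 1.81, -1.32 to -1.15, 0.37 to 0.49, -0.34 to -0.23 and -2.41 to -1.73 and adjusted p-values of at most 0.0379. Ptges3 also lost its call with library size alone (-0.14, edgeR adjusted p = 0.15) and without a filter (-0.18, 0.0873). Over the 11 settings 2 to 3 of the 10 genes were called higher and 3 to 4 lower, among the other eicosanoid genes 11 to 18 higher and 14 to 23 lower, and among all tested genes 5115 to 7550. Of the 27 further genes named by the rule, 7 lost their call at least once and none reversed. Scaling by library size alone moved the median of all tested genes to 0.08. The labels state no covariate, so the replicate number was not taken as a pairing. Deviations of same-numbered libraries from their group means correlated at r = 0.17, -0.06 and 0.19. With 3 libraries a group these values depend on each other and cannot decide whether the libraries are paired. With the replicate block 7152 genes were called, against 6447 without it. Of the 10 genes 2 were then higher and 4 lower, and among the other eicosanoid genes 17 higher and 23 lower. With 3 libraries a group and 55 counts of Ltc4s over the HFCS-labelled libraries, depth limits the lowest genes most.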
